A study of Mus musculus with 8 samples.

Results

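Egr1, Egr2, Egr3, Klf2, Klf4, Klf6, Klf10, Ier2, Ier3 and Btg2 are immediate early genes, and their transcripts and m6A peaks were described here in mouse bone marrow mesenchymal stem cells (MSCs). The 10 genes were taken by name from a table of 47643 named genes, and all 10 passed the filter on low counts that left 15327 genes for testing. The RNA-seq compared 2 wild-type (WT) libraries, which the study describes as Mettl3fl/fl littermates, with 2 libraries of Prx1-Cre;Mettl3fl/fl cells (cKO). Prx1-Cre is active in limb mesenchyme, and the recombination removes exons 2 and 3 of Mettl3. All samples came from C57BL/6 marrow cells, flushed from tibiae and femurs and kept for 2 days in an osteogenic medium that held dexamethasone at 100 nM, β-glycerophosphate at 5 mM and ascorbic acid at 50 µg/ml. The age and sex of the animals are not given in the sources used here, nor is the number of animals behind each library. A separate m6A immunoprecipitation of wild-type cells labelled as MSCs, with 2 immunoprecipitated and 2 input samples, had been reduced to a single list of 10160 peaks.

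Immediate early genes are switched on within minutes of a stimulus through factors that already wait in the cell, such as SRF with its Elk partners and CREB, and their short-lived transcripts are soon removed. Egr1, Egr2 and Egr3 encode zinc finger transcription factors that bind GC-rich DNA, and the Nab1 and Nab2 proteins hold them in check. The Klf genes encode zinc finger factors that bind GC-rich and CACCC sequences, and Klf10 was first known as a gene that TGF-β induces in osteoblasts. Ier3 encodes a small protein linked to cell survival, Ier2 a nuclear protein encoded by a gene with a single exon, and Btg2 an antiproliferative protein that works with the CCR4-NOT deadenylase. Mettl3 is the catalytic subunit of the enzyme that writes N6-methyladenosine (m6A) on mRNA, most often at the A of a GGAC core, and m6A marks many transcripts for faster decay.

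The wild-type cells carried 11 m6A peaks on 8 of the 10 genes. The sequences below show the GGAC nearest to the peak summit for members of each family, read from mm9 on the strand of the gene, 5′ to 3′, with every GGAC in capitals. They were chosen because these transcripts either changed the most among those with a peak or carried the strongest peaks. The first Klf4 stretch lies in the coding sequence at chr4:55543335-55543396, minus strand, and the other in the 3′UTR at chr4:55540663-55540690.
Klf4, first peak: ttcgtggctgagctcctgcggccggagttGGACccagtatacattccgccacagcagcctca
Klf4, last peak: ttgaacatgcccGGACttacaaaatgcc
The Klf6 stretch lies in the coding sequence at chr13:5864073-5864134, plus strand, and the Klf2 stretch, with a pair of cores, in the 3′UTR at chr8:74844894-74844921, plus strand.
Klf6: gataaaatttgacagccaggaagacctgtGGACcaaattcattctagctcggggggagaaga
Klf2: ctgctatttattGGACcttaGGACagag
The Ier2 stretch lies in the 3′UTR at chr8:87185563-87185590, minus strand, and its GGAC is 3 nt from the summit. The Egr2 stretch lies in the 3′UTR at chr10:67003876-67003903, plus strand.
Ier2: aggccagggtgtGGACccgccctaggga
Egr2, last peak: ccaccttctcacGGACggccttccgaaa

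The libraries held between 23978099 and 34106693 estimated counts. Levels are given as counts per 1000000 (CPM) after TMM scaling, and comparisons between genes use transcripts per 1000000 (TPM), which correct for length. Mettl3 itself measured 17.6 and 16.9 CPM in WT and 17.5 and 16.3 CPM in cKO (edgeR adjusted p = 0.824). A count over the whole gene also takes in the exons that the recombination leaves, so it does not check the labels, and WT and cKO below mean the libraries labelled so. The WT replicates differed from each other far more than the cKO replicates did, with a biological coefficient of variation of 12.3% against 1.90%. Mesenchymal markers were present in every library, with 11 of 11 detected and summed levels of 2905 and 2841 CPM in WT against 2319 and 2345 CPM in cKO. They went both ways, 6 lower and 4 higher, with mean levels from WT to cKO of 1907 to 1241 CPM for Col1a1, 140 to 288 CPM for Prrx1 and 2.92 to 72.0 CPM for Thy1. Macrophage markers were high in all 4 libraries, at 15807 and 20644 CPM summed over 8 genes in WT against 21161 and 21291 CPM in cKO. The 5 chondrocyte markers summed to 3536 and 3574 CPM in WT and to 84.1 and 83.6 CPM in cKO. Endothelial markers summed to 3.22 to 3.64 CPM in WT and 14.5 to 17.1 CPM in cKO, a difference carried by Kdr and Emcn, while mean levels from WT to cKO were 0.401 to 0.177 CPM for Cdh5 and 0.257 to 0.161 CPM for Pecam1. Neutrophil markers summed to 0.909 to 4.17 CPM over all libraries with 3 of 6 at 0 throughout, and erythroid and lymphoid markers stayed under 1 CPM. The part of these cell types in the results below was not tested, and in such bulk samples fewer cells of a type and less RNA per cell cannot be told apart.

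Of the 10 genes, 5 fell and 1 rose in cKO cells at an adjusted p under 0.05 by edgeR's quasi-likelihood test. Ier3, Klf4, Btg2, Klf2 and Ier2 fell, Klf6 rose, and Egr1, Egr2, Egr3 and Klf10 did not pass. Over all 15327 genes tested, 16.8% were lower and 13.7% higher by the same rule, 30.5% in either direction. Both cKO libraries lay below both WT libraries for 8 of the 10 genes, a pattern found in 35.0% of all tested genes, and above them for Klf6, a pattern found in 33.9%. The median log2 fold change (cKO minus WT) was -0.54 over the 10 genes and -0.0038 over all genes tested. With 2 libraries a group, an exact permutation test of a single value cannot go below p = 0.333. The tests below therefore rest on a spread shared across all genes and by both groups. They count the 2 cKO libraries, whose spread was much the smaller, as separate replicates.

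**Figure D1:**
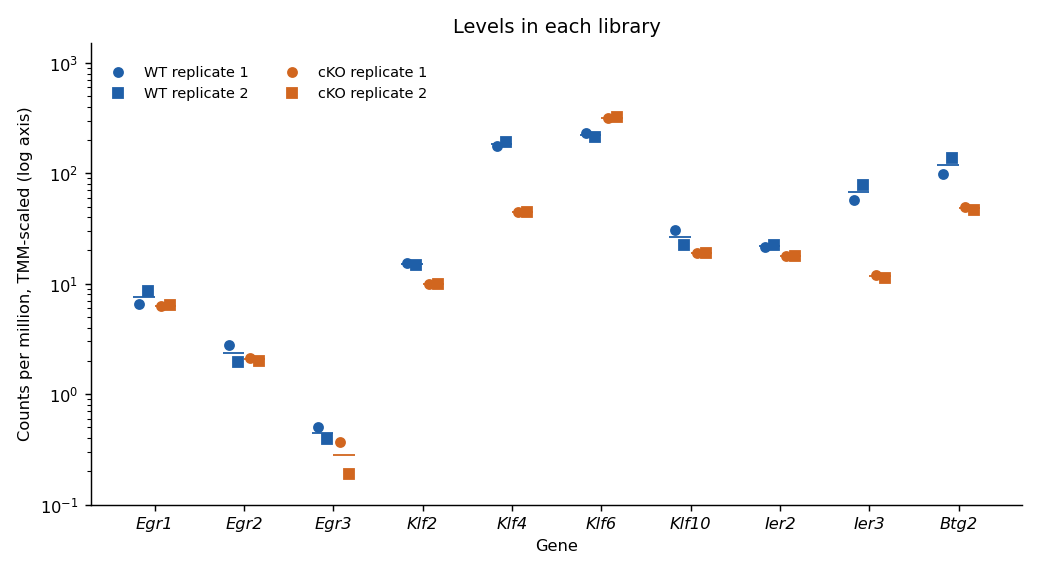
Level of each of the 10 genes in CPM (vertical log axis) in each library, circles for replicate 1, squares for replicate 2, blue for WT, orange for cKO, with short lines at the group means. The groups stand well apart for Klf4, Ier3 and Btg2 and are mixed for Egr2, and the cKO replicates lie closer together than the WT replicates for all but Egr3.

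The Egr genes were the lowest of the set and none of the 3 passed the test. Egr1, which couples growth factor signals to transcription, measured 6.56 and 8.52 CPM in WT and 6.31 and 6.37 CPM in cKO. The lower WT library lay close to both cKO libraries, though the groups did not overlap, and the log2 fold change was -0.25 ± 0.16 (SE, n = 2 per group, 95% interval -0.64 to 0.15, edgeR adjusted p = 0.306). Egr2, a regulator of Schwann cell myelination that also acts in bone, measured 2.81 and 1.95 CPM in WT and 2.14 and 2.01 CPM in cKO. Its groups overlapped, with the WT replicates both the highest and the lowest of the 4 values, and its log2 fold change of -0.20 ± 0.26 had a 95% interval of -0.84 to 0.43 (edgeR adjusted p = 0.601). Egr3, a close relative with much the same binding site, rested on 17 and 11 counts in WT and 9 and 6 counts in cKO. At this depth its log2 fold change of -0.72 ± 0.52 spanned -1.97 to 0.54 (edgeR adjusted p = 0.343), an interval that includes a 2-fold fall and no change at all. The WT replicates disagreed in direction between the Egr genes, since Egr1 was higher in replicate 2 and Egr2 and Egr3 in replicate 1. The log2 fold change of Egr1 was -0.42 without WT replicate 1 and -0.05 without WT replicate 2. That of Egr2 turned to 0.10 without WT replicate 1. A lone WT library shows no spread of its own, so only the effect sizes are given.

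The 4 Klf genes did not move together. Klf4, one of the factors able to reprogramme cells to pluripotency, measured 177 and 191 CPM in WT and 44.5 and 44.4 CPM in cKO. The cKO values were both far below the WT values, the groups did not overlap, and the level was 4.14-fold lower (log2 fold change -2.05 ± 0.07, 95% interval -2.21 to -1.89, edgeR adjusted p = 1.2e-05). Klf2, known for keeping endothelial cells and lymphocytes quiescent, measured 15.3 and 14.6 CPM in WT and 9.94 and 9.88 CPM in cKO. Its groups did not overlap and it was 1.51-fold lower (log2 fold change -0.60 ± 0.10, edgeR adjusted p = 0.0064). The Klf2 call was lost under 4 of 12 settings, among them without either cKO replicate, where the log2 fold change stayed at -0.60 and -0.59, its adjusted p running from 2.43e-09 to 0.111 over all settings. Klf10 measured 30.6 and 22.5 CPM in WT and 19.0 and 19.1 CPM in cKO, so that the WT replicates lay further apart than the lower of them lay from the cKO libraries. Its log2 fold change of -0.48 ± 0.15 had a 95% interval of -0.84 to -0.12 and just missed the threshold (edgeR adjusted p = 0.054). With 2 libraries kept in each group, its adjusted p ran from 0.00013 (edgeR without the filter on low counts) to 0.435 (linear model on log2(TPM + 1)). In such settings it passed with a replicate block, without the filter and by DESeq2. Its log2 fold change was -0.23 without WT replicate 1 and -0.69 without WT replicate 2.

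Klf6, a broadly expressed factor induced by injury, rose in cKO cells. It measured 234 and 212 CPM in WT and 315 and 324 CPM in cKO. The groups did not overlap, and the level was 1.43-fold higher (log2 fold change 0.52 ± 0.07, 95% interval 0.35 to 0.69, edgeR adjusted p = 0.0028). By TPM, Klf4 and Klf6 exchanged places as the most abundant Klf transcript of the set. By CPM, which is not corrected for length, Klf6 was above Klf4 in both groups. The ratio of their TPM levels, Klf4 over Klf6, was 1.87 and 1.96 in WT and 0.342 and 0.356 in cKO. The summed TPM of the 4 Klf genes went from 248 and 225 in WT to 165 and 172 in cKO.

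Ier3 changed by more than any other gene of the set. It measured 57.3 and 78.0 CPM in WT and 11.96 and 11.3 CPM in cKO, and was 5.82-fold lower (log2 fold change -2.54 ± 0.16, 95% interval -2.93 to -2.16, edgeR adjusted p = 0.00014). The groups did not overlap, although the WT replicates themselves lay far apart. Btg2 showed the same spread in WT, at 99.1 and 138.5 CPM, against 49.4 and 46.8 CPM in cKO. It was 2.47-fold lower with no overlap between groups (log2 fold change -1.30 ± 0.15, 95% interval -1.67 to -0.93, edgeR adjusted p = 0.0017). Ier2 measured 21.3 and 22.6 CPM in WT and 17.7 and 17.8 CPM in cKO, so the groups did not overlap but lay close. It was 1.23-fold lower (log2 fold change -0.30 ± 0.09, edgeR adjusted p = 0.041), and this call was lost under 8 of 12 other settings, with adjusted p from 0.00042 to 0.323. Ier3, Klf4, Btg2 and Klf6 kept their calls under 11 of 12 settings, and the exception for each of them was a linear model on log2(TPM + 1) without shared variance.

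**Figure D2:**
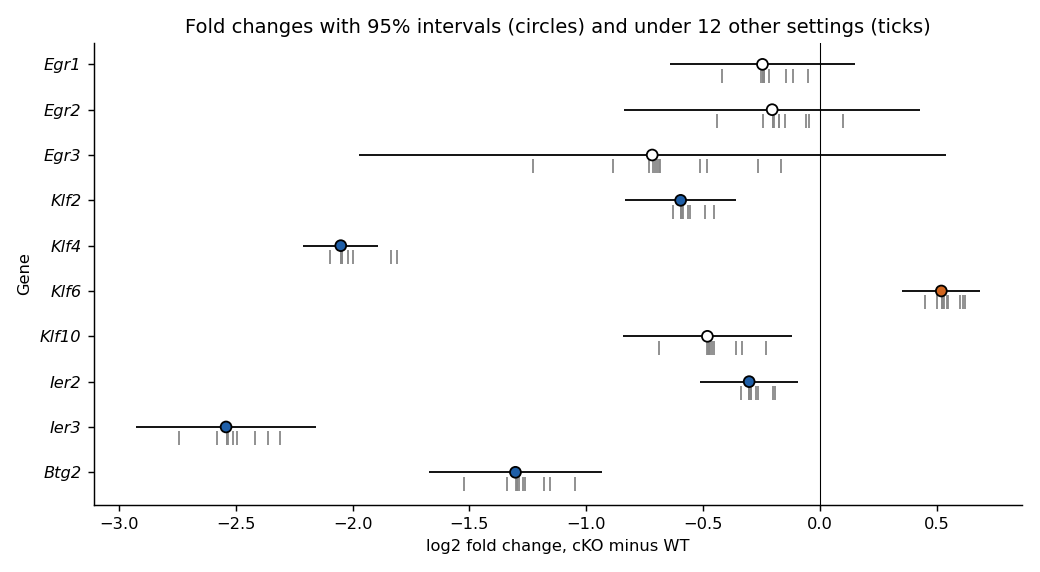
Log2 fold change of each gene, cKO minus WT, on the horizontal axis, with circles at the edgeR value (blue lower, orange higher, white not past adjusted p 0.05), lines for its 95% interval and grey ticks for the value under each of 12 other settings. The circles of Ier3, Klf4 and Btg2 lie furthest from 0, at -2.54, -2.05 and -1.30, and a tick crosses 0 for Egr2 alone.

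Per length, Klf4 was the most abundant of the 10 transcripts in WT cells, at 139 ± 6.7 TPM (SD, n = 2). It was followed by Ier3 at 100.5 ± 18.7 TPM, Klf6 at 72.6 ± 5.9 TPM and Btg2 at 61.6 ± 13.5 TPM. Next came Ier2 at 22.5 ± 0.37 TPM, Klf10 at 12.3 ± 2.8 TPM and Klf2 at 12.2 ± 0.64 TPM. Egr1 at 3.13 ± 0.54 TPM, Egr2 at 1.47 ± 0.54 TPM and Egr3 at 0.50 ± 0.10 TPM were last. In this order the values of Klf6 and Btg2 overlapped, as did those of Klf10 and Klf2, and the other neighbours did not. The order rests on the lengths behind the TPM values, which are not given in the sources used here. For Klf4, TPM was 143.82 and 134.29 in WT replicates 1 and 2, while CPM ran the other way, at 177 and 191. In cKO cells Klf6 led with 111 ± 2.7 TPM, ahead of Klf4 with 38.9 ± 2.1 TPM and Btg2 with 26.8 ± 0.94 TPM. Ier2, at 19.5 ± 0.15 TPM, then stood above Ier3, at 18.6 ± 0.74 TPM, and the order from Klf10 down to Egr3 was that of WT.

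The transcripts of the set differed in how m6A peaks lay on them. Klf4 held 3 peaks, Egr2 held 2, and Egr1, Egr3, Klf2, Klf6, Klf10 and Ier2 held 1 each, while Ier3 and Btg2 held none. Of all tested genes in the mm9 annotation, 40.3% held a peak. The share varied with the level, and among genes of 50 to 200 TPM in WT, where Klf4, Ier3, Klf6 and Btg2 fall, 41.9% held one. Egr3, at 0.50 TPM in the WT libraries, held a peak, and 13.6% of genes under 1 TPM did. These levels come from the WT RNA-seq, and levels in the m6A input samples were not examined. Pileup did not follow the WT level, at 113 for Egr1 (3.13 TPM) and 82, 54 and 29 for Klf4 (139 TPM). The m6A samples carry the same medium and genotype labels as the WT libraries, and m6A in cKO cells was not analysed here. Peaks lay on 6 of the 8 macrophage markers and on 6 of the 11 mesenchymal markers. The cell type in which each peak arose was not tested.

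**Figure D3:**
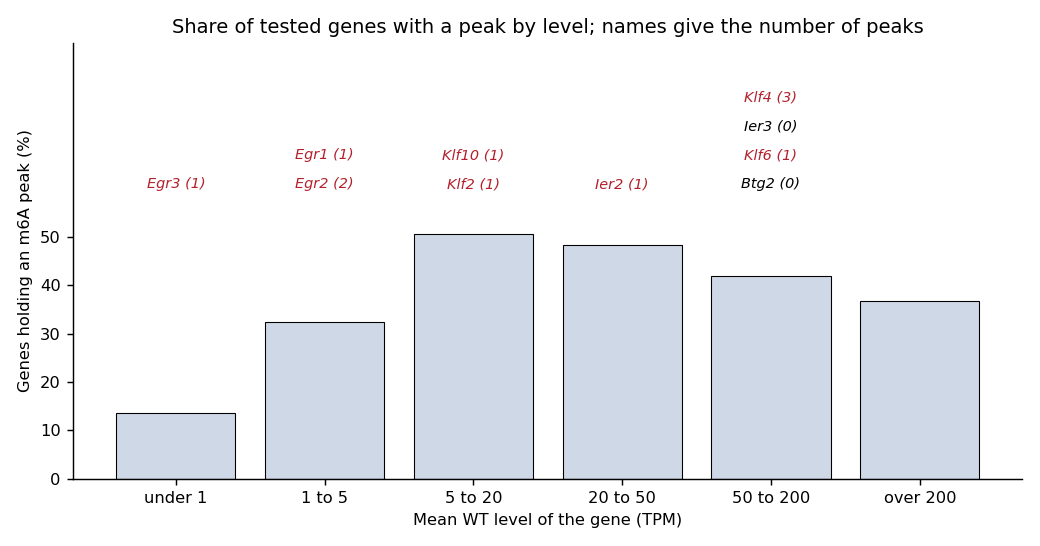
Share of tested genes that hold an m6A peak (vertical axis, percent) by mean WT level in TPM (bars), with each of the 10 genes named over the bar of its level and its number of peaks in brackets (red with a peak, black without). Ier3 and Btg2 hold none in a class where 41.9% of genes hold one, and Egr3 holds 1 in the lowest class, at 13.6%. The classes follow the WT RNA-seq, and levels in the m6A input samples were not examined.

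By pileup and q, though not by fold enrichment, Ier2 carried the strongest peak of the set. Its peak spanned 1008 bp of the single exon with a pileup of 137, a fold enrichment of 4.84 and a −log10 q of 44.8, rank 198 among the 10160 peaks, and it covered all 11 GGAC cores of the transcript. At 7.23 GGAC per kb, the Ier2 transcript was denser in this core than 92.0% of the 19915 coding transcripts counted. Its summit fell in the 3′UTR, 414 nt past the stop codon. The Klf2 peak summit, also in the 3′UTR, lay 63 nt past the stop codon with a fold enrichment of 4.98 and a −log10 q of 30.3. Klf2 was the next densest, at 6.50 GGAC per kb.

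The 3 Klf4 peaks all had a fold enrichment below the median of the list. Their summits lay 849 nt and 115 nt before the stop codon in the coding sequence and 311 nt past it in the 3′UTR, with fold enrichments of 3.43, 2.71 and 3.02, against a median of 4.03 over all peaks. The last of them had a −log10 q of 4.74, and only 6.72% of all peaks had a lower one. The Klf6 summit lay in the coding sequence, 645 nt before the stop codon, and its fold enrichment of 2.26 was the lowest of the set. The Klf10 summit lay 120 nt before the stop codon with a fold enrichment of 3.19 and a single GGAC within the peak, 57 nt from the summit.

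Among the Egr genes, the Egr1 summit lay in the coding sequence 380 nt before the stop codon, with a fold enrichment of 2.79 and a −log10 q of 17.5. The Egr2 summits lay 528 nt before and 170 nt past the stop codon, and the one in the 3′UTR had the highest fold enrichment of the set, 5.24. The Egr3 summit lay 585 nt before the stop codon with a pileup of 34 and a fold enrichment of 4.81. In all, 7 of the 11 summits lay in coding sequence and 4 in the 3′UTR, where over all peaks within genes 61.0% lay in coding sequence and 25.7% in the 3′UTR. Every one of the 11 peaks held at least 1 GGAC, as 86.9% of all peaks within genes did.

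**Figure D4:**
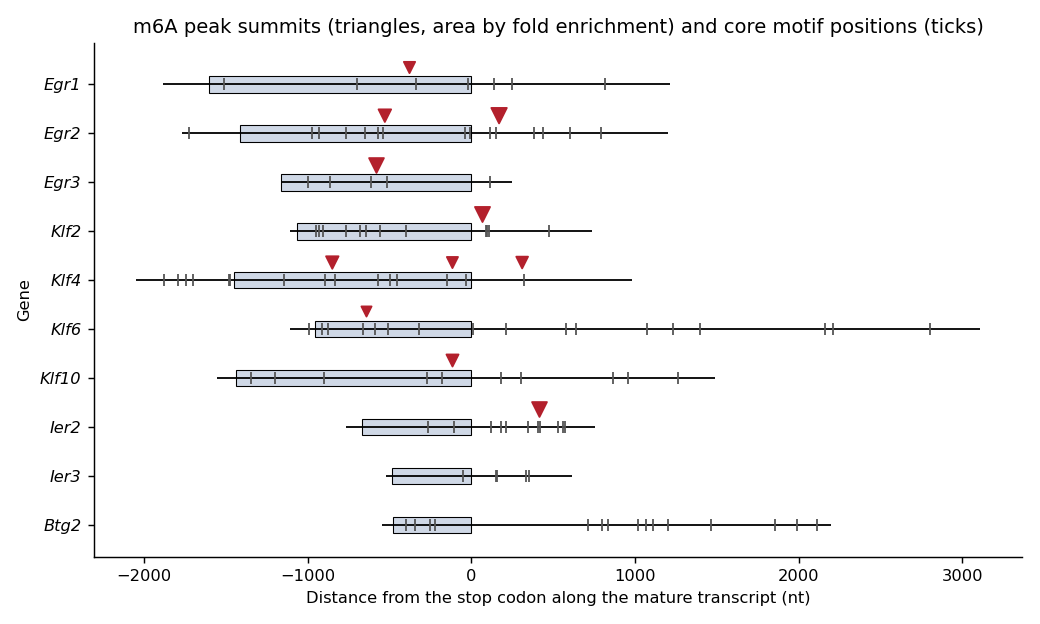
Mature transcript of each gene aligned at the stop codon (horizontal axis, nt), with the coding sequence as a box, untranslated parts as lines, core motif positions as ticks and peak summits as red triangles whose area follows the fold enrichment. Ier3 and Btg2 have 5 and 15 core motifs but no triangle, and the triangles of Klf4 stand on both sides of the stop codon.

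Ier3 and Btg2 lacked a peak though their transcripts were not short of the core. Ier3 has 5 GGAC, 4 of them in the 3′UTR, and Btg2 has 15, of which 11 lie in the 3′UTR. At 4.42 and 5.47 GGAC per kb they were above the median of 4.13 for coding transcripts. Both transcripts fell in cKO cells, by 5.82-fold and 2.47-fold. Among the 8 genes with a peak, 3 fell, Klf6 rose and 4 did not pass the test. Over all tested genes in the annotation, 20.9% of those without a peak were lower and 8.78% higher. The shares were 14.8% and 17.7% with 1 peak, 11.8% and 27.7% with 2 peaks, and 9.63% and 38.0% with 3 or more. Klf4, with its 3 peaks, belonged to the smaller share of that class.

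The relatives of these genes were split. Of 23 relatives 18 were tested, of which 5 (27.8%) fell and 6 (33.3%) rose, against 16.8% and 13.7% of all genes tested, with a median log2 fold change of 0.03. The Klf relatives carried the rises, 6 of 10 tested against 1 fall. They were Klf5 (2.34), Klf15 (1.04), Klf7 (0.92), Klf11 (0.85), Klf9 (0.38) and Klf3 (0.24), while Klf8 fell by 1.03 on the log2 scale. The calls of Klf9, Klf3 and Klf8 lay near the threshold (edgeR adjusted p = 0.034, 0.036 and 0.046). With limma on log2(TPM + 0.1), 4 of the relatives were called higher and 3 lower. Klf13, the most abundant relative, measured 238 and 234 CPM in WT and 236 and 239 CPM in cKO, with a log2 fold change of 0.01 ± 0.06 (edgeR adjusted p = 0.914). Of the Btg and Tob relatives, antiproliferative proteins that work with the same deadenylase as Btg2, 3 of 4 tested fell. Tob1 measured 129.9 and 151.9 CPM in WT and 24.2 and 27.0 CPM in cKO (log2 fold change -2.46 ± 0.10, edgeR adjusted p = 2.7e-05), and Tob2 measured 194 and 203 CPM against 114 and 111 CPM (-0.82 ± 0.06, edgeR adjusted p = 0.00027). Btg3 fell as well (-0.80), and Btg1 (-0.48) did not pass. Of the Egr corepressors Nab2 fell (-0.67) and Nab1 (0.05) did not pass. Among the relatives that did not pass were also Klf12 (0.26), Klf16 (-0.27), Ier5 (0.15) and Ier5l (-0.24). Apart from Klf13, Tob1 and Tob2, these relatives were named after their values were seen.

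Other immediate early genes, formed a list chosen with results of these data known, so its counts are no independent evidence of a direction. All 36 were tested, of which 24 (66.7%, against 16.8% of all genes) were lower and 6 (16.7%, against 13.7%) higher, with a median log2 fold change of -1.10. The most abundant was Mcl1, a survival protein of the Bcl2 family, which rose from 825 and 830 CPM to 1010 and 1052 CPM (log2 fold change 0.32 ± 0.06, edgeR adjusted p = 0.0086). The Mcl1 call was lost under 5 of 12 other settings, among them without either cKO replicate, with adjusted p up to 0.228. Ctgf, a matricellular growth factor, rose from 282 and 286 CPM to 579 and 561 CPM (1.0 ± 0.06, edgeR adjusted p = 9.6e-05). At the other end stood the orphan nuclear receptors Nr4a1 and Nr4a3. Nr4a1 measured 274 and 291 CPM in WT against 7.67 and 8.84 CPM in cKO, and Nr4a3 152 and 153 CPM against 0.248 and 0.47 CPM. Their log2 fold changes were -5.09 and -8.66, and a difference between them and the Egr genes was not tested.

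Transcripts for the factors and kinases upstream of immediate early genes were largely not called. Of 21 tested, 1 (4.76%, against 16.8% of all genes) fell and 3 (14.3%, against 13.7%) rose, with a median log2 fold change of 0.10. The number called rose without either WT replicate and fell without either cKO replicate, as did the number over all genes. The fall was that of Crem, a cAMP-responsive factor that is itself inducible, from 34.8 and 48.3 CPM to 13.2 and 13.9 CPM (-1.61 ± 0.16, edgeR adjusted p = 0.00096). Elk3, a partner of SRF, rose from 45.8 and 52.9 CPM to 67.0 and 69.0 CPM (0.46 ± 0.08, edgeR adjusted p = 0.0092), a call also lost under 5 of 12 settings, among them without either cKO replicate, with adjusted p up to 0.167. Mef2a, the most abundant, had a log2 fold change of 0.12 ± 0.09 (edgeR adjusted p = 0.341). Activity of these proteins is not seen in transcript counts.

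Among 10 genes known as targets of Egr and Klf factors, 9 were tested. Of these, 3 (33.3%, against 16.8% of all genes) fell and 1 (11.1%, near the 13.7% of all genes) rose. More of them were called without either WT replicate and fewer without either cKO replicate, as over all genes. Vegfa, the main angiogenic growth factor, fell from 185 and 161 CPM to 39.1 and 40.1 CPM (-2.13 ± 0.09, edgeR adjusted p = 2.5e-05). F3, which encodes tissue factor and is a classical Egr1 target, rose from 7.21 and 7.32 CPM to 54.9 and 53.4 CPM (2.90 ± 0.08, edgeR adjusted p = 8.1e-06). Cdkn1a, a cell cycle inhibitor induced by Klf4, had a log2 fold change of -0.16 ± 0.07 (edgeR adjusted p = 0.118), with a sign that turned on the TPM scale. Heat shock genes, only some of which stress induces, were read beside them. Of 8 tested, 3 (37.5%, against 16.8% of all genes) fell and 1 (12.5%, near the 13.7% of all genes) rose. Here too more were called without either WT replicate and fewer without either cKO replicate. The log2 fold changes were 0.03 ± 0.06 for Hspa8 (edgeR adjusted p = 0.711), -0.36 ± 0.08 for Hspa5 (adjusted p = 0.019), -1.26 ± 0.06 for Hsph1 (adjusted p = 4.4e-05) and 0.65 ± 0.08 for Hspb1 (adjusted p = 0.0026). The Hspa5 call was lost under 5 of 12 settings, among them without either cKO replicate, with adjusted p up to 0.253.

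**Figure D5:**
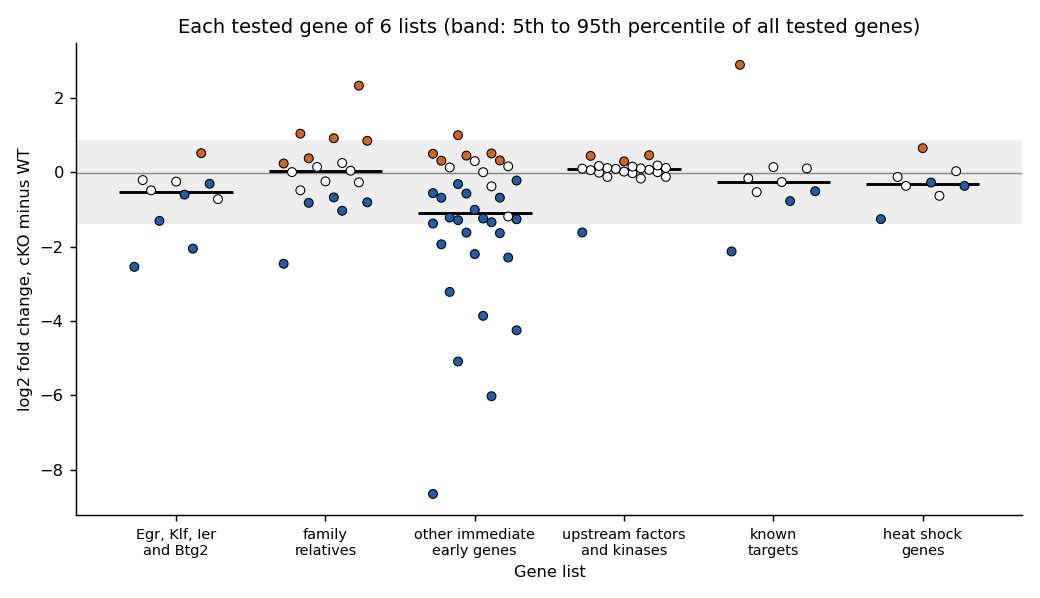
Log2 fold change, cKO minus WT (vertical axis), of each tested gene of 6 lists, coloured blue if lower, orange if higher and white if not past adjusted p 0.05, with thick lines at list medians and a grey band from the 5th to the 95th percentile of all tested genes (-1.35 to 0.84). The Egr, Klf, Ier and Btg2 median is -0.54, that of other immediate early genes is -1.10, and that of upstream factors and kinases is 0.10.

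Promoter windows from RefSeq on GRCm38.p6, reaching from 250 bases before to 50 after a start, were at hand for 6 of the 10 genes, Egr2, Klf2, Klf4, Klf6, Ier3 and Btg2. They were searched on both strands for the CArG box that SRF binds, the full cAMP response element TGACGTCA, its core TGACG, which every full element contains, the GC box GGGCGG, the Egr site GCGTGGGCG and the AP-1 site TGACTCA. Btg2 alone had the full element, at 166 bases before its start, which 2.03% of 27025 genes with windows hold. A CArG box was present in 4 of 5 windows of Egr2, some of which overlap and which hold 2 distinct boxes in all, and 1.81% of genes hold one. A GC box was present in each of the 6 genes (38.2% of all genes), and TGACG in Egr2, Klf2, Klf4 and Btg2 (23.0%). The Egr site (0.707% of all genes) and the AP-1 site (5.95%) were in none of these windows. These stretches are shown because they belong to genes with unlike changes, 2.47-fold lower for Btg2, 4.14-fold lower for Klf4 and no call for Egr2, with matches in capitals (TGACGTCA, TGACG or its complement, GC boxes, and for Egr2 the CArG box). The Btg2 stretch is chr1:134079246-134079345, minus strand, the Klf4 stretch chr4:55532656-55532715, minus strand, and the Egr2 stretch chr10:67537749-67537828, plus strand, before an internal start of that gene.
Btg2: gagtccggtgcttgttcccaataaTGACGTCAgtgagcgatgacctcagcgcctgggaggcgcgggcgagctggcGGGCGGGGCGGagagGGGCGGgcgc
Klf4: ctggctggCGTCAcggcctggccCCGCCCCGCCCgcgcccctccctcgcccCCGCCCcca
Egr2: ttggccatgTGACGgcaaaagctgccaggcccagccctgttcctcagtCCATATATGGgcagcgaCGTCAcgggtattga
These are matches of letters only, and binding was not measured.

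The genes whose 4 library values ran closest to those of a member were found by the Euclidean distance of mean-centred log2 CPM over 13301 tested genes of at least 1 CPM. For Egr1 they were Ier5l (distance 0.023) and Rnd2 (0.032), for Klf4 Snai1 (0.049) and Dgat1 (0.093), for Ier2 Psma5 (0.0065) and Pja1 (0.0077), and for Btg2 Car5b (0.046) and Lmo7 (0.061). Snai1 measured 49.7 and 53.2 CPM in WT and 12.7 and 12.1 CPM in cKO. With 4 values from shared libraries such likeness is a description and says nothing of shared control.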

How the data were processed

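Estimated counts per gene and a length-corrected column were deposited by the authors for 2 WT and 2 cKO poly-A RNA-seq libraries. Processing notes name HISAT2 2.0.4, and the counting program and its use of strand are not given in the sources used here. The deposited column headed FPKM sums to 1000000 in each library and is therefore TPM. The m6A list deposited by the authors gives pileup (signal), fold enrichment (a ratio) and a −log10 p and q for each peak, of which the q was used. TopHat and MACS2 are named for the series, coordinates are on mm9, and pooling of the m6A samples is not stated.

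Counts were rounded, the 89 unnamed entries (0.110% to 0.125% of counts) were left out, and genes were filtered with filterByExpr and scaled by TMM in edgeR 4.0.16 (R 4.3.3). The quasi-likelihood test was two-sided, with Benjamini-Hochberg adjustment over 15327 genes, and p-values measure the spread between these libraries, whose separate origin from animals is not stated. Alternatives used DESeq2 1.42.0 and limma 3.58.1. The scripts were tested on simulated data with the same spread in both groups, so the unequal spread of these libraries was not covered. None of the 10 genes overlaps another entry of the table. A peak was given to the gene that holds its summit, with GENCODE vM1. Promoters are those of RefSeq, on GRCm38.p6. Members, lists and tests were chosen with earlier results of these data known. From each list the 2 genes of highest mean CPM and the 2 of lowest adjusted p were named, except for 2 genes that are not reported here, with levels only as sums for cell type markers, and likeness used 4 preset members (Egr1, Klf4, Ier2, Btg2) with 0.5 added to CPM. Depth was 23978099 to 34106693 counts per library.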

Additional observations from a re-analysis of the deposited data

How the results depend on the processing

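The design has 2 libraries a group, and the WT spread is much the wider. Egr3 is limited by depth, at 6 to 17 counts. Over 12 other settings for the counts, the number of the 10 genes called lay within 1.5 times the 6 reported under all but one. The linear model on log2(TPM + 1) called 0 of the 10 genes (6 at an unadjusted p under 0.05), 65 of all genes (4218), 0 relatives (8), 1 other immediate early gene (25), 0 upstream genes (6), 1 target (4) and 0 heat shock genes (2), against 4677, 11, 30, 4, 4 and 4 by edgeR; it estimates each variance from 4 values alone. With limma on log2(TPM + 0.1), 2060 genes, 7 relatives, 1 upstream gene and 2 heat shock genes were called. With the cKO libraries summed to 1, whose spread is then taken to be that of WT, 2012 genes, 1 upstream gene and 2 heat shock genes were called. Leaving out each library in turn gave 4 to 8 of the 10 genes, 1867 to 8750 of all genes, 7 to 14 relatives, 20 to 34 other immediate early genes, 1 to 12 upstream genes, 3 to 9 targets and 2 to 7 heat shock genes, and the lone library was assumed to vary like the other group. The count over all genes rose without either WT library and fell without either cKO library.

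Replicate numbers were not shown to pair the libraries (correlation of deviations 0.031 over 12585 genes, 2 pairs). With a replicate block, 4881 of all genes and 6 of the 10 were called. Ier2 lost its call under this pairing and Klf10 gained one.

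Directions turned for some values near 0. Egr2 ran from -0.44 to 0.10 with a library left out, Mettl3 from -0.078 to 0.023, Klf13 from -0.0043 to 0.029 and Hspa8 from -0.0068 to 0.081. Cdkn1a was 0.0136 on both TPM scales. The cause was not tested. The m6A peaks of the 10 genes numbered 11 under 3 of 4 alternatives and 10 with a −log10 q of at least 5.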
